A study of Mus musculus musculus x M. m. domesticus and Mus musculus musculus x Mus musculus castaneus and Mus musculus domesticus with 42 samples.

Results

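The 6 genes described here were chosen as near the background of the array in testis of 1 parental house mouse subspecies and bright in that of another: Lpcat2b, 1700029F12Rik, Ttc30a2, Stac, Cpn1 and Cd24a. They are represented by every probe set (a group of array probes read as 1 value) that carries the gene's symbol alone. These were 10 of 45037 probe sets, and 6 of the 18193 gene symbols on the array. Since the genes were chosen by their parental testis signals, those signals are given below as values with no test. Tests of these genes compared only arrays that the choice did not use, which are those of the F1 hybrids and of brain and liver. In fits that include testis, the parental testis arrays still entered the filter on low signals and the shared estimate of the spread. Only genes outside the 6 are tested between the parental testes.

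The study measured total RNA of testis, brain and liver from 14 males, 2 of each of 7 genotypes, on 1 array per tissue and male. The F1 were the reciprocal hybrids of wild-derived inbred lines, named with the mother first: musculus x domesticus (53 days old), domesticus x musculus (50 days), musculus x castaneus (53 days) and castaneus x musculus (54 days). The parents were Mus musculus domesticus (45 days), Mus musculus castaneus (47 days) and Mus musculus musculus (47 days), called domesticus, castaneus and musculus here. Each genotype was sampled at 1 age, so genotype and age cannot be told apart where ages differ, and each subspecies is represented by inbred animals. The values are array signals on a linear scale without unit, with 95 to 183 as the median of an array. Levels of different probe sets are not on 1 scale, so each is compared with itself across arrays.

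A testis holds germ cells at every stage from spermatogonia through spermatocytes to round and elongated spermatids, with Sertoli cells in the tubules and Leydig cells between them. Many genes are transcribed in testis and in few other organs, and much of that transcription takes place in spermatocytes and spermatids. An F1 hybrid inherits from both parents, and the place of its signal between a dim and a bright parent is used below as a description. This place can also move with the cell types of the testis, so it does not measure allele dosage alone. Spermatid markers followed the tissue labels: 7 of 7 round spermatid genes and 8 of 8 elongated spermatid genes lay above the 80th percentile on every testis array. Spermatogonia markers (6 of 7 genes on the array) did not: their summed signal averaged 3583 in testis, 10344 in brain and 3918 in liver. The musculus x castaneus F1 testes stood apart from all others. Their summed round spermatid signal was 25999 to 27707, against 44523 to 54691 on the other testis arrays, and their summed Leydig cell signal (3 of 6 genes on the array) was 12529 to 13160, against 3242 to 10385. In whole testis, fewer cells of a type and less RNA per cell cannot be told apart.

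Lpcat2b and 1700029F12Rik were dim in musculus testis alone. Lpcat2b is related to Lpcat2, an acyltransferase that puts fatty acids back onto lysophospholipids. Its testis signal was 5368 and 4495 in domesticus and 3910 and 3468 in castaneus, against 46 and 13 in musculus. On the log2(signal + 31) scale used for all differences, which understates changes of dim transcripts, this was 6.41 ± 0.263 for domesticus minus musculus and 6.0 ± 0.263 for castaneus minus musculus (SE). The musculus arrays placed the probe set between the 11.1th and 27.6th percentile of all signals, and both other subspecies placed it at or above the 95.0th.

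All F1 expressed Lpcat2b, between the dim and the bright parent. The signal was 2137 and 1886 in the musculus x domesticus F1 and 2462 and 2516 in the domesticus x musculus F1. In the castaneus cross it was 1414 and 776 with a musculus mother and 2500 and 2448 with a castaneus mother. Ordered by mean, domesticus came first, then castaneus, the domesticus x musculus F1, the castaneus x musculus F1, the musculus x domesticus F1, the musculus x castaneus F1 and musculus. The domesticus x musculus and castaneus x musculus F1 overlapped, and no other neighbours in this order did.

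The gene 1700029F12Rik is a RIKEN cDNA gene for which no role is given here. Its testis signal was 6599 and 5217 in domesticus and 3185 and 3978 in castaneus, against 31 and 26 in musculus. The differences were 6.63 ± 0.186 for domesticus minus musculus and 5.92 ± 0.186 for castaneus minus musculus (SE, log2 scale). The F1 of the domesticus cross read 3419 and 2906 with a musculus mother and 3439 and 3665 with a domesticus mother. Those of the castaneus cross read 625 and 814 with a musculus mother and 1414 and 1077 with a castaneus mother. Castaneus and both domesticus-cross F1 covered overlapping ranges or lay next to each other, whereas all 4 castaneus-cross F1 males lay below all 4 domesticus-cross F1 males and above musculus.

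Ttc30a2 was bright in domesticus testis alone. Ttc30a2 encodes a tetratricopeptide protein of the family that serves as a subunit of intraflagellar transport complex B, which carries cargo along cilia and the sperm tail. Probe set 1437098_x_at read 3699 and 3969 in domesticus and 85 and 83 in castaneus, against 37 and 32 in musculus. Probe set 1455921_at read 3125 and 3160 in domesticus and 54 and 51 in castaneus, against 7 and 35 in musculus. The difference of domesticus from musculus was 5.88 ± 0.197 and 5.99 ± 0.246 for these probe sets, and that of castaneus from musculus 0.81 ± 0.197 and 0.74 ± 0.246 (SE, log2 scale). Both probe sets list the same source transcript, so they are not independent measurements, and the near-identical copies Ttc30a1 and Ttc30b may share their probes.

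The F1 divided in the same way as their parents. With probe set 1437098_x_at, Ttc30a2 read 3245 and 2930 in the musculus x domesticus F1 and 3280 and 3020 in the domesticus x musculus F1. It read 71 and 91 in the musculus x castaneus F1 and 26 and 55 in castaneus x musculus F1. Every male with a domesticus parent was thus far above every male without one.

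Stac, Cpn1 and Cd24a ran the other way, with the highest signal in musculus. Stac encodes an adaptor protein of a family known to bind L-type calcium channels. Its testis signal was 103 and 14 in domesticus and 149 and 150 in castaneus, against 2347 and 2482 in musculus. The differences were -4.98 ± 0.343 for domesticus minus musculus and -3.76 ± 0.343 for castaneus minus musculus (SE, log2 scale). Castaneus placed Stac between the 52.3th and 54.2th percentile of the array, so it was near the middle of all signals there and not at the bottom, and the 2 domesticus arrays were at the 11th and 43.2th. The word silent is therefore not borne out for Stac. In the F1, Stac read 1224 and 1427 (musculus x domesticus), 1242 and 1543 (domesticus x musculus), 993 and 1131 (musculus x castaneus) and 1563 and 1358 (castaneus x musculus). All F1 lay between the parents, and the F1 groups overlapped except the musculus x castaneus F1, which was the lowest.

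Cpn1 encodes the catalytic subunit of carboxypeptidase N, a plasma enzyme made in liver that trims basic residues from the ends of peptides such as kinins. Probe set 1417745_at read 14 and 16 in domesticus testis and 32 and 45 in castaneus testis, against 1307 and 1385 in musculus testis. The differences were -4.90 ± 0.185 for domesticus minus musculus and -4.31 ± 0.185 for castaneus minus musculus (SE, log2 scale). The F1 read 1110 and 1139 with a musculus mother and 507 and 551 with a domesticus mother in the domesticus cross, and 509 and 687 with a musculus mother and 685 and 570 with a castaneus mother in the castaneus cross. The musculus x domesticus F1 came next to musculus, and the other 3 F1 overlapped in a chain, from 507 to 687. The second Cpn1 probe set, 1440576_at, was dim in every testis (2 to 76) and was not tested there.

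Cd24a encodes a glycoprotein anchored to the cell surface, known from developing neurons, blood cells and epithelia. With probe set 1448182_a_at it read 113 and 94 in domesticus and 46 and 28 in castaneus, against 1749 and 1271 in musculus. With 1416034_at it read 75 and 90 in domesticus and 75 and 64 in castaneus, against 1256 and 1182 in musculus. With 1437502_x_at it read 66 and 85 in domesticus and 65 and 41 in castaneus, against 1084 and 761 in musculus. The differences from musculus lay between -3.50 and -3.15 for domesticus and between -4.50 and -3.50 for castaneus (log2 scale). Domesticus placed 1448182_a_at between the 41.0th and 45.7th percentile of the array, so Cd24a was low there but not at the bottom, and silent is not borne out for Cd24a in domesticus either. The summed signal of 6 immune cell genes in testis was 1933 to 2093 in domesticus and 1108 to 1207 in castaneus, against 1275 to 1302 in musculus. That of 3 erythroid genes was 583 to 617 in domesticus and 470 to 606 in castaneus, against 513 to 616 in musculus. That of 5 epididymis epithelium genes, of which 2 or 3 stayed at or below the offset, was 12051 to 12798 in domesticus and 12711 to 14658 in castaneus, against 13849 to 13978 in musculus. This last sum rests on the remaining genes of its list, so it is not read as a measure of epididymal cells. The part of these cell types in the Cd24a difference was not tested.

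**Figure D1:**
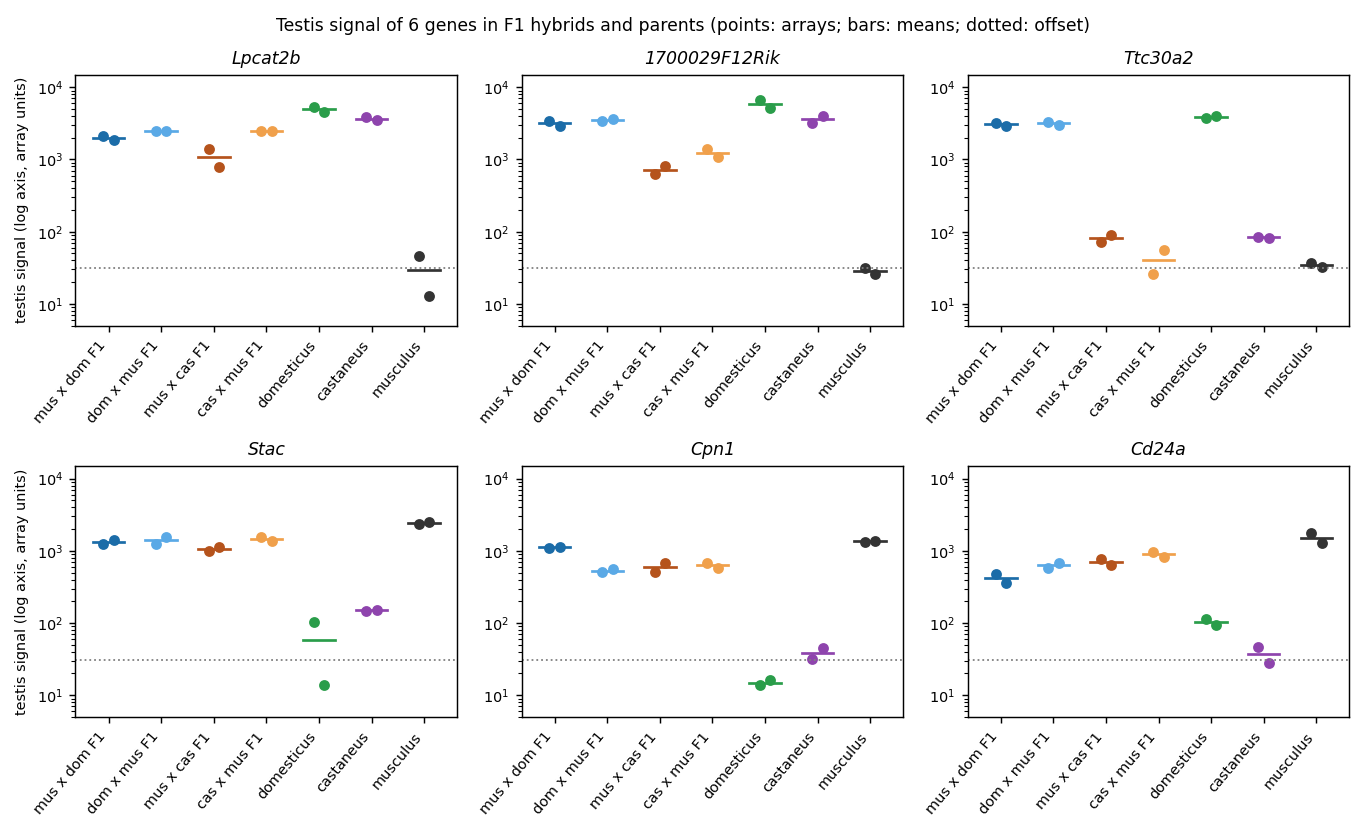
Testis signal (log axis, array units) of the brightest probe set of each gene, with the 4 F1 left of the 3 parents. Points are arrays, bars are means of 2 males and the dotted line is the offset of 31; musculus is at the bottom for Lpcat2b and 1700029F12Rik, and at the top for Stac, Cpn1 and Cd24a.

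A signal under the 30th percentile of the array in both males of 1 parent, with one above the 80th percentile in both males of another, occurred in 55 probe sets of 39 named genes. Of the 6 genes, 5 had such a probe set and Stac did not. Just inside the lower limit was Ttc30a2 with 1455921_at, at the 28.4th and 29.8th percentile in castaneus, and just outside was Cd24a with 1437502_x_at, at the 26th and 32.1th in castaneus. Further outside in castaneus were Cd24a with 1416034_at, at the 34.3th and 35.4th percentile, and Ttc30a2 with 1437098_x_at, at the 38.3th and 40.1th. Both were thus low there but not at the bottom.

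In brain and liver, most of these genes were dim in all genotypes. The highest Lpcat2b signal was 100 in brain and 117 in liver. For 1700029F12Rik it was 19 in brain and 27 in liver, and every value was below the offset of 31. Ttc30a2 read 24 to 63 in brain and 1 to 59 in liver with 1437098_x_at, and Stac read 55 to 119 in brain and 13 to 135 in liver. Cpn1 and Cd24a were bright elsewhere. Cpn1 read 3992 to 8169 in liver with 1417745_at and 3 to 18 in brain, and Cd24a read 669 to 1020 in brain with 1448182_a_at. The probes that read 14 and 16 for Cpn1 in domesticus testis read 5513 and 6878 in domesticus liver, against 8169 and 6984 in musculus liver.

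The difference between subspecies was then tested in brain and liver. In brain only the 3 Cd24a probe sets passed the filter on low signals. With limma and an adjusted p under 0.05 as the call, 0 of these 3 were called for domesticus minus musculus, where 5.75% of all tested probe sets were, and 0 of 3 for castaneus minus musculus, where 6.07% were. None reached an unadjusted p under 0.05 (0 of 3 in each comparison), against 4608 of 27022 over all for domesticus and 4933 for castaneus. The Cd24a differences in brain ran from 0.12 to 0.26 for domesticus and from -0.17 to 0.39 for castaneus (log2 scale), against -3.50 or lower in testis for 1448182_a_at. No test of brain against testis was made, because the testis differences chose the gene.

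In liver 5 probe sets of Cpn1 and Cd24a were tested. For domesticus minus musculus 1 of 5 was called, against 6.17% of all probe sets: the dimmer Cpn1 probe set 1440576_at, which read 58 and 199 in domesticus and 622 and 425 in musculus, a difference of -1.93 ± 0.424 (limma adjusted p = 0.0160). This call was lost without domesticus replicate 1 (-1.25, adjusted p = 0.129) and without musculus replicate 1 (-1.67, adjusted p = 0.145). The bright Cpn1 probe set differed by -0.29 ± 0.218 (adjusted p = 0.550). For castaneus minus musculus 0 of 5 were called, against 6.55% of all. An unadjusted p under 0.05 was reached by 2 of 5, against 5300 of 27022 over all. Bright Cpn1 was at -0.69 ± 0.218 there (adjusted p = 0.0842).

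**Figure D2:**
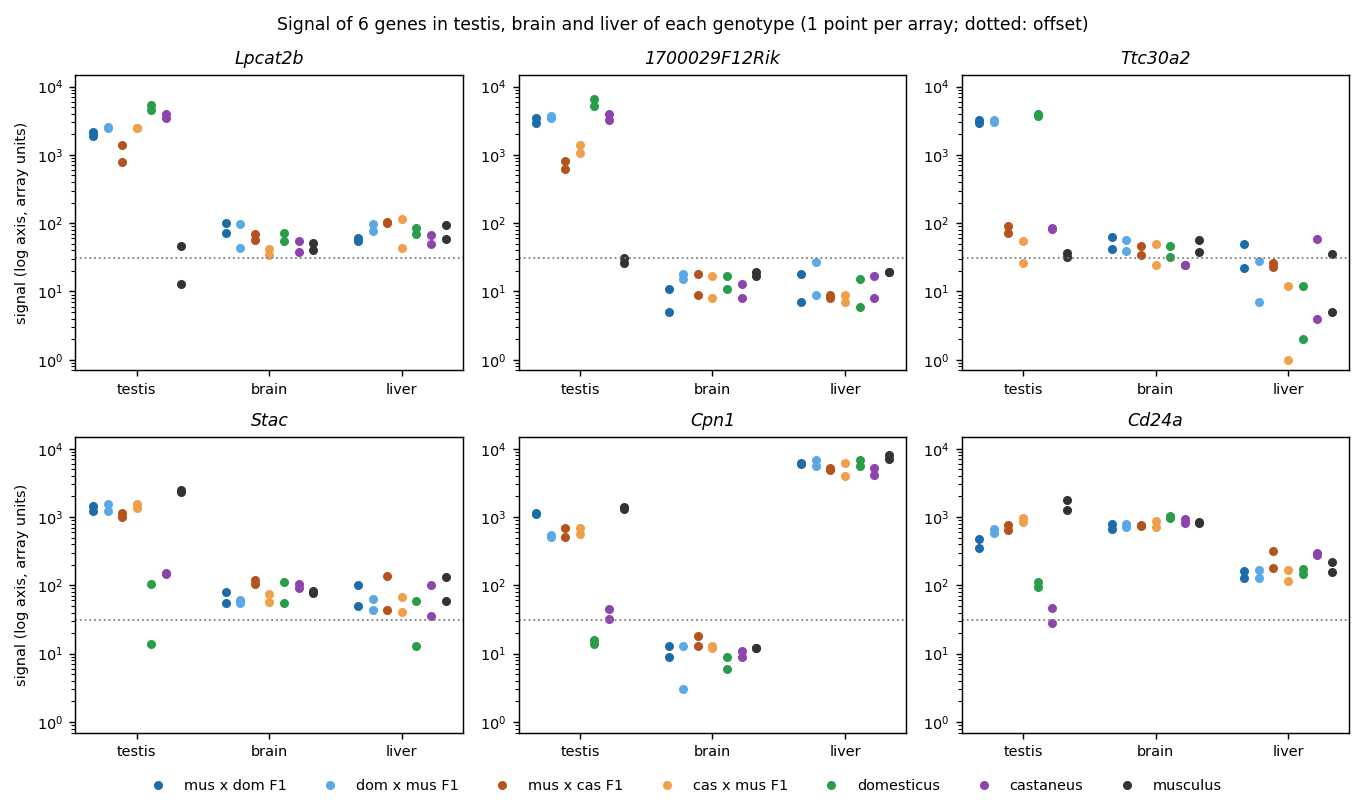
Signal (log axis, array units) of the brightest testis probe set of each gene in testis, brain and liver, with 1 point per array colored by genotype and the offset of 31 as a dotted line. Genotypes spread widely in testis for every gene, while Cpn1 stays between 3992 and 8169 in liver and Cd24a between 669 and 1020 in brain.

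Testis was compared with the other tissues in the 8 F1 males, with the animal as a random block. Of the 7 probe sets that passed the filter, 6 were called for testis minus brain, where 83.0% of all tested probe sets were, and 7 for testis minus liver, where 82.9% were. These shares are near the background and are not a result about the genes. Lpcat2b, 1700029F12Rik and Stac did not pass the filter within brain or within liver, and Cpn1 did not within brain; they entered these comparisons through the tissues where they are bright, so their values are given as a description, with no p. Lpcat2b averaged 2017 ± 633 in F1 testis and 64.25 ± 25 in F1 brain (SD, n = 8 each), a difference of 4.38 ± 0.142 (4.67 without the musculus x castaneus F1). The gene 1700029F12Rik averaged 2170 ± 1306 in F1 testis and 12.62 ± 5.04 in F1 brain, where every value was below the offset. Stac averaged 1310 ± 200 in F1 testis and 76.00 ± 24.6 in F1 brain (3.66 ± 0.191, and 3.91 without the musculus x castaneus F1). Cpn1 averaged 719.8 ± 259 in F1 testis, 11.75 ± 4.30 in F1 brain and 5627 ± 885 in F1 liver, and testis minus liver was -2.96 ± 0.0864 (-2.94 without the musculus x castaneus F1). Cd24a was higher in testis than in liver with all 3 probe sets, by 1.26 to 2.04. Between testis and brain its probe sets disagreed, at 0.16, -0.37 and -0.24, and after quantile normalization they stood at 0.39, -0.20 and -0.08.

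The place of each F1 between its parents was expressed as the F1 signal minus the dim parent's mean, in percent of the distance between the parents, on the linear scale. In the domesticus cross, Ttc30a2 reached 81.2% ± 4.49 with 1437098_x_at and 88.6% ± 7.27 with 1455921_at (SD over 4 males), so every male was closer to the bright parent than to the midpoint. Lpcat2b reached 45.3% ± 6.02, 1700029F12Rik 56.6% ± 5.46 and Stac 55.2% ± 6.50. Cd24a reached 29.7% ± 9.64 with 1448182_a_at, 28.3% ± 7.75 with 1416034_at and 40.8% ± 20.7 with 1437502_x_at. On the log2 scale these domesticus-cross shares were higher, at 82.4% for Lpcat2b, 87.9% for 1700029F12Rik, 83.5% for Stac, 95.0% for Ttc30a2 (1437098_x_at) and 57.3% for Cd24a (1448182_a_at), so that Lpcat2b and Cd24a lay on the other side of the midpoint. Cpn1 had no shared level in this cross: the F1 with a musculus mother were at 83.4% ± 1.54 and those with a domesticus mother at 38.6% ± 2.34 (SD, n = 2 each). Over the 26 probe sets that were dim in musculus and bright in domesticus, the median share was 54.0%, with quartiles of 44.4% and 62.6%, so Ttc30a2 lay above the upper quartile of this set, which includes it.

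In the castaneus cross the shares were 48.0% ± 22.9 for Lpcat2b, 26.9% ± 9.63 for 1700029F12Rik, 49.1% ± 11.1 for Stac, 43.9% ± 6.74 for Cpn1 and 51.8% ± 8.94 for Cd24a with 1448182_a_at (SD over 4 males). The other Cd24a probe sets disagreed with each other, at 46.8% ± 12.5 with 1416034_at and 80.3% ± 13.9 with 1437502_x_at. Without the musculus x castaneus F1 the shares were 34.3% for 1700029F12Rik, 57.9% for Stac, 45.0% for Cpn1 and 58.3% for Cd24a (1448182_a_at). The wide spread of Lpcat2b came from its reciprocal F1, which were at 29.1% ± 12.3 with a musculus mother and 66.8% ± 1.00 with a castaneus mother (SD, n = 2 each). The 10 probe sets dim in musculus and bright in castaneus had a median share of 37.9%, with quartiles of 29.0% and 45.6%. On the log2 scale these castaneus-cross shares were higher, at 68.1% to 80.4%.

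**Figure D3:**
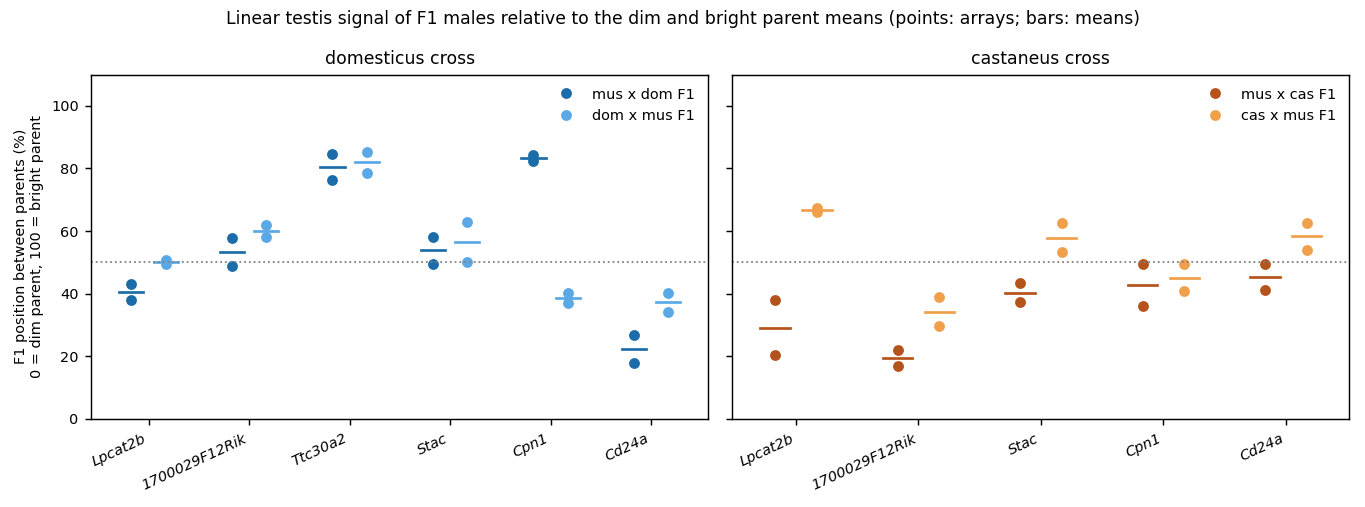
Position of each F1 male between the dim parent (0) and the bright parent (100) in percent of the linear testis signal, for the domesticus cross (left) and the castaneus cross (right), with points for arrays, bars for means of 2 males and a dotted line at the midpoint. Ttc30a2 lies near the bright parent, and Cpn1 splits by the direction of the domesticus cross.

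The F1 of the domesticus cross were tested against those of the castaneus cross in testis, with 4 males each. Of 9 tested probe sets 6 were called, from 3 genes, where 23.9% of all tested probe sets were. Both Ttc30a2 probe sets are among the 6, but they passed the filter only through males with a domesticus parent, so their values are given as a description, with no p. Ttc30a2 averaged 3119 ± 171 in the domesticus-cross F1 and 60.75 ± 27.5 in the castaneus-cross F1 (SD), a difference of 5.15 ± 0.139; the second probe set gave 5.36 ± 0.174. The gene 1700029F12Rik was higher with a domesticus parent, at 3357 ± 321 in the domesticus-cross F1 and 982.5 ± 342 in the castaneus-cross F1 (1.80 ± 0.132, limma adjusted p = 1.58e-06). Cd24a was lower with all 3 probe sets, by 0.55, 0.86 and 0.61 on the log2 scale (adjusted p = 0.00751, 0.00943 and 0.0112). With 1448182_a_at it averaged 521.8 ± 136 in the domesticus-cross F1 and 799.5 ± 132 in the castaneus-cross F1, and single males of the groups overlapped. Lpcat2b (0.46 ± 0.186, adjusted p = 0.0892), Cpn1 (0.33 ± 0.131, adjusted p = 0.0849) and Stac (0.12 ± 0.243, adjusted p = 0.767) were not called. Without the musculus x castaneus F1, 999 probe sets were called in place of 6470, 1700029F12Rik stood at 1.42 (adjusted p = 1.83e-04), Ttc30a2 at 5.49 and 5.50, Lpcat2b at -0.14 (adjusted p = 0.729) and Stac at -0.10, and Cd24a with 1437502_x_at lost its call (-0.92, adjusted p = 0.0767).

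The reciprocal F1 of the domesticus cross differed at few places, with 0.204% of tested probe sets called. Of the 9 described here 1 was: Cpn1 averaged 1124 ± 20.5 in the musculus x domesticus F1 and 529.0 ± 31.1 in the domesticus x musculus F1 (SD, n = 2 each), a difference of 1.05 ± 0.185 (limma adjusted p = 0.0385). The difference stayed between 0.96 and 1.10 in 10 alternatives, with an adjusted p between 0.0181 and 0.333, and the call was lost in 8 of them, including each omission of 1 of these 4 males. The signals of 5 liver genes, Cps1 left out, summed to 791 and 2745 in the musculus x domesticus F1 testes and 277 and 335 in the domesticus x musculus F1 testes, against 358 and 569 in musculus testes, where Cpn1 was brightest; the part of liver RNA in this difference was not tested. The other differences lay between -0.74 (Cd24a with 1437502_x_at) and -0.03 (Ttc30a2).

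In the castaneus cross 28.4% of all tested probe sets differed between the reciprocal F1 and the median difference was 0.24, so a call there is common. The split of calls was 4836 higher and 2851 lower, and 2740 higher and 3382 lower after quantile normalization. Of 9 probe sets 4 were called. Lpcat2b averaged 1095 ± 451 in the musculus x castaneus F1 and 2474 ± 36.8 in castaneus x musculus F1 (-1.21 ± 0.263, limma adjusted p = 0.00473), and the call was lost without musculus x castaneus replicate 2 (-0.79, adjusted p = 0.0612). The gene 1700029F12Rik averaged 719.5 ± 134 in the musculus x castaneus F1 and 1246 ± 238 in castaneus x musculus F1 (-0.77 ± 0.186, adjusted p = 0.00890), with adjusted p = 0.0802 without musculus x castaneus replicate 1 and 0.105 without castaneus x musculus replicate 1. Cd24a with 1416034_at was at -0.53 ± 0.180 (adjusted p = 0.0424), and its other probe sets were not called. The Cd24a call was lost in 5 of 10 alternatives. The fourth call was Ttc30a2 with 1437098_x_at, at 81.00 ± 14.1 in the musculus x castaneus F1 and 40.50 ± 20.5 in castaneus x musculus F1; both means lie below the filter signal of 84.3, which the probe set passed through other groups, so nothing is read from this call. Round spermatid markers (7 of 7 on the array) summed to 25999 to 27707 in the musculus x castaneus F1 and 45430 to 52971 in castaneus x musculus F1, and Leydig markers (3 of 6) to 12529 to 13160 in the musculus x castaneus F1 and 4643 to 6174 in castaneus x musculus F1; the part of cell composition in these differences was not tested.

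The reciprocal difference of Cpn1 was larger in the domesticus cross than in the castaneus cross by 1.12 ± 0.262 (limma adjusted p = 0.0234), the 1 call among 9 probe sets where 6.58% of all were called. It was lost in 5 of 14 alternatives, with an adjusted p of 0.0124 to 0.0995. For Lpcat2b the same quantity was 0.91 (adjusted p = 0.166).

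**Figure D4:**
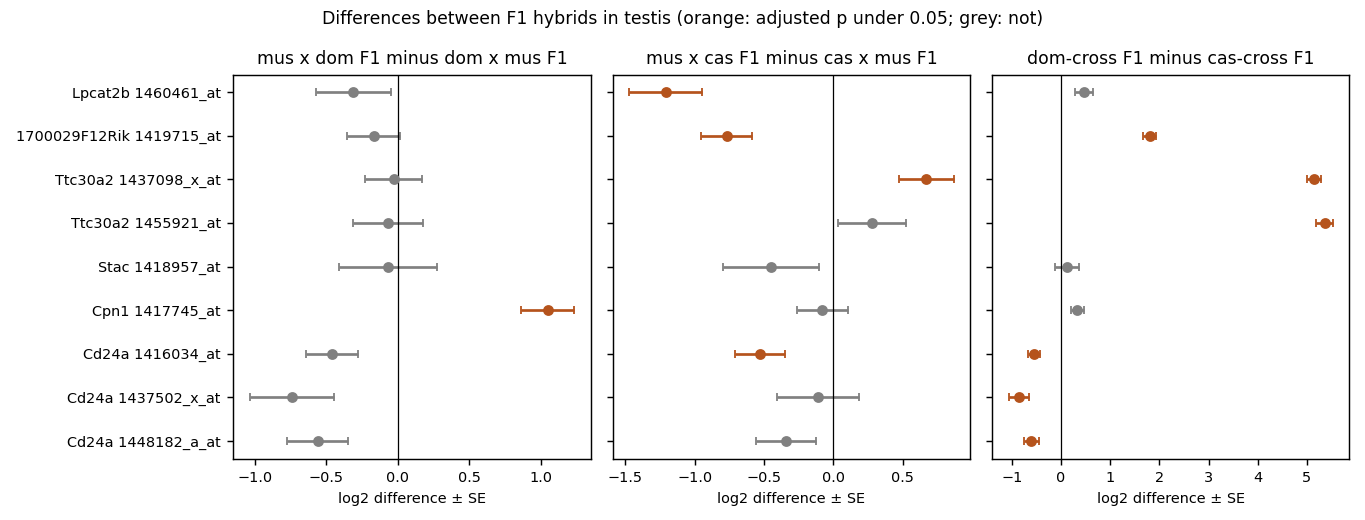
Log2 differences with SE of the 9 tested probe sets between F1 groups in testis: the reciprocal F1 of the domesticus cross, those of the castaneus cross, and the F1 of the domesticus cross minus those of the castaneus cross. Orange points had an adjusted p under 0.05, which is not read for Ttc30a2; Ttc30a2 reaches 5.15 and 5.36 in the right panel.

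Genes related to these by family or complex mostly did not share their contrast between the parental testes, where 12.8% of tested probe sets were called for domesticus minus musculus and 13.5% for castaneus minus musculus. An unadjusted limma p under 0.05 is common there. It was reached by 6644 of 27022 probe sets for domesticus minus musculus and by 6983 for castaneus minus musculus. Of 17 tested genes of intraflagellar transport complex B, 3 were higher and 5 lower in domesticus, with a median of -0.11 against 0.00 over all probe sets, and 3 were higher and 4 lower in castaneus. Ttc30a1, a near-identical copy of Ttc30a2, averaged 1208 in domesticus and 561.5 in musculus (1.06 ± 0.143, limma adjusted p = 1.91e-04), and 1566 in castaneus (1.43 ± 0.143, adjusted p = 1.60e-05). It was thus higher in both subspecies, while Ttc30a2 was bright in domesticus alone. Of 13 lysophospholipid acyltransferases 1 was higher (Agpat2, 0.52 ± 0.149) and 1 lower (Mboat2, -0.77) in domesticus; in castaneus limma called 0 of 13, with 3 at an unadjusted p under 0.05. Of 8 genes of the STAC family and L-type calcium channels limma called 0 in either comparison, with 2 at an unadjusted p under 0.05 in domesticus and 0 in castaneus. Of 6 CD24 partners it also called 0, with 1 at an unadjusted p under 0.05 in domesticus and 0 in castaneus. Of 4 carboxypeptidases 1 was lower in domesticus (Cpxm1, -0.72, adjusted p = 0.0179), and 0 were called in castaneus, with 2 at an unadjusted p under 0.05.

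Other genes followed the same pattern over the 14 testis arrays, given as a description because males of a genotype share it. Ttc30a2 was most like 1700006J14Rik (Pearson r = 0.994) and Cps1 (0.988), the first enzyme of the urea cycle. Cps1 averaged 1293 in the musculus x domesticus F1 and 1184 in the domesticus x musculus F1, 96.0 in the musculus x castaneus F1 and 94.0 in castaneus x musculus F1, 1596 in domesticus, 108 in castaneus and 97.0 in musculus. For 1700029F12Rik it was Prps1l1 (0.978), a phosphoribosyl pyrophosphate synthetase gene. For Lpcat2b it was 1700029M03Rik (0.965), which was also among the 3 most like 1700029F12Rik (0.976). Stac was most like Hebp2 (0.971), Cpn1 most like Anks1b (0.974) and Cd24a most like Grsf1 (0.964). Among the 6 genes themselves, r was 0.958 between Lpcat2b and 1700029F12Rik and 0.962 between Stac and Cpn1. The parental arrays among the 14 chose these genes, so a high r between genes with the same dim and bright parents follows in part from the choice.

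No detection calls were analysed here, so a dim signal is not called absent. How far alleles that mismatch the probes contribute to dim testis signals was not tested. The same Cpn1 probes were bright in liver and the same Cd24a probes in brain of all 3 subspecies. Lpcat2b, 1700029F12Rik, Ttc30a2 and Stac were bright in neither brain nor liver of any genotype, so these tissues offer no such comparison for them.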

How the data were processed

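The 6 genes and the lists of related genes and markers were chosen with earlier results of these data known. The deposited intensity values were produced with MAS5, according to the submitters' processing notes, and are linear and already scaled: every array has nearly the same trimmed mean (496.9 to 498.6 after leaving out 2% at each end). Groups were taken from the labels. Signals were converted to log2(signal + 31), 31 being the 20th percentile of all values. Per tissue, probe sets whose mean reached the 40th percentile (27022) entered a fit with limma 3.58.1 in R 4.3.3 (lmFit, eBayes with an intensity trend), over 14 arrays with 7 residual degrees of freedom. Tests were two-sided, with Benjamini-Hochberg adjustment over all tested probe sets and 0.05 as the threshold. F1 testis was compared with F1 brain and liver over 42 arrays with the animal as a random block (same-animal residual correlations of 0.102 to 0.312, above 0.1 in 21 of 21). Only the fits between F1 testes were tested on simulated data, with 200 changed probe sets each. Of changes of 1 log2 unit, 42.5% were called between the reciprocal F1 of the domesticus cross and 30.5% in the castaneus cross. Between the crosses 72% were called, and for the difference of the reciprocal differences 2%. Of changes of 2 log2 units, 68.5% to 90% were called. The changed probe sets were drawn only from brighter ones. The real fits called 7687 probe sets between the reciprocal F1 of the castaneus cross and 6470 between the crosses. With that many calls the adjustment is less strict, so the simulated shares need not hold for those fits. Named genes were all members, the 3 largest called differences of each list, from which examples are printed, and the 3 genes most like each member. Chromosome neighbours were part of the rule and were not analysed here. The number of arrays, 2 per group, limits precision.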

Additional observations from a re-analysis of the deposited data

Results flagged for a closer look

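Cpn1 (1417745_at) differed between the crosses in its reciprocal difference in testis. The musculus-mother F1 minus the other F1 was 1.05 in the domesticus cross and -0.08 in the castaneus cross, and the test of the difference itself gave 1.12 ± 0.262 (log2 scale, limma adjusted p = 0.0234). This call was lost in 5 of 14 alternatives, and the call within the domesticus cross in 8 of 10. Both males of the musculus x domesticus F1 (1110 and 1139) lay above both of the domesticus x musculus F1 (507 and 551), while the castaneus-cross F1 overlapped.

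Cd24a with 1437502_x_at differed in sign between tissues for domesticus minus musculus, at -0.25 in liver and 0.12 in brain, with both domesticus arrays on the same side of musculus in each tissue. The difference between the tissues was not tested, neither value was called, and the other Cd24a probe sets overlapped between the groups in liver.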

How the results depend on the processing

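The 66 tested differences gave 809 alternative values: 36 lost a call, 8 gained one and 20 changed sign, the last in 13 differences that had not been called. Of 26 calls, 16 held in every alternative run. Most of the 16 compared F1 testis with F1 brain or liver, where 83.0% and 82.9% of all tested probe sets were called. The 16 also include calls given above as a description, with no p. Every call between reciprocal F1, for the reciprocal difference between crosses, or between subspecies in liver was lost in some alternative. The cause of the changes was not tested. Leaving out 1 male in turn gave Cd24a (1416034_at) ranges of -0.10 to 0.47 in brain domesticus minus musculus, -0.41 to 0.07 in brain castaneus minus musculus and -0.14 to 0.03 in liver domesticus minus musculus (0.01 with quantile normalization). For Cd24a (1448182_a_at) they were -0.04 to 0.17 in brain castaneus minus musculus and -0.38 to 0.03 in liver domesticus minus musculus. Between the reciprocal F1 of the domesticus cross they were -0.10 to 0.04 and -0.19 to 0.04 for Ttc30a2 and -0.22 to 0.09 for Stac. Between those of the castaneus cross they were -0.28 to 0.13 for Cpn1 and -0.33 to 0.10 for Cd24a (1437502_x_at). The difference of the reciprocal differences was -0.09 to 0.23 for Cd24a (1416034_at). Without the musculus x castaneus F1, an alternative chosen after seeing the data, the difference between the crosses was -0.14 for Lpcat2b and -0.10 for Stac, with 999 probe sets called.

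On the log2 scale the share of the bright parent was 82.4% (domesticus cross) and 80.4% (castaneus cross) for Lpcat2b, 87.9% and 68.1% for 1700029F12Rik, 95.0% for Ttc30a2 in the domesticus cross, 83.5% and 75% for Stac, 74.3% for Cpn1 in the castaneus cross, and 57.3% and 80.3% for Cd24a. Leaving out 1 male gave 50.7% to 64.2% for 1700029F12Rik in the domesticus cross and 44.5% to 61.8% for Cd24a in the castaneus cross. Of the described probe sets, 0 were called between the reciprocal F1 of the domesticus cross with no filter, no intensity trend, an offset of 1 or quantile normalization (limma, against 1). In the main fit 4 of 9 had an unadjusted p under 0.05, against 1318 of 27022 over all probe sets. Quantile normalization called 1 in liver castaneus minus musculus (Cpn1, -0.72, adjusted p = 0.0311). Leaving out 1 male gave 0 to 1 such calls in liver domesticus minus musculus, 1 to 3 between the reciprocal F1 of the castaneus cross and 0 to 2 for the reciprocal difference between crosses.

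Over all probe sets, no trend gave 26 calls between the reciprocal F1 of the domesticus cross and 1116 for the difference between crosses. Leaving out 1 male gave 720 to 866 calls in brain domesticus minus musculus, 731 to 1103 in brain castaneus minus musculus, 770 to 1143 in liver domesticus minus musculus, 745 to 1186 in liver castaneus minus musculus, 2033 to 2277 in testis domesticus minus musculus, 2130 to 2366 in testis castaneus minus musculus, 6 to 38 and 3450 to 7628 between the reciprocal F1 of the domesticus and castaneus crosses, 4227 to 6227 between the crosses, and 640 to 1995 for the difference of the reciprocal differences. With the replicate number as a block, Lpcat2b gained a call between the crosses (0.46, limma adjusted p = 0.0393), and 6603 probe sets were called there against 6470. Males that share a number correlated above 0.1 in 10 of 21 testis pairs, 12 of 21 brain pairs (-0.345 to 0.404) and 9 of 21 liver pairs. The labels do not say what the numbers mark, and these correlations do not settle it. Signals near the offset limit the Ttc30a2 values of the castaneus cross.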
